A study of Rattus norvegicus with 23 samples.

Results

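The baseline difference between a pair of rat strains was measured in the kidneys of sham-operated males that had kept both kidneys. All arrays of the sham groups were taken, 5 of SBN/y and 6 of SBH/y, which are 11 of the 23 arrays of the series. SBN/y and SBH/y are the inbred lines of the Sabra rat known as resistant and prone to salt-induced hypertension, and the series is titled for its work on proteinuria. Rats of both strains were fed ordinary chow with free access to water, underwent a sham nephrectomy and were killed at 4 months of age, 3 months after surgery, by bleeding under ether. The kidney was frozen and total RNA of the tissue was hybridised to an Affymetrix rat array, 1 array per sample. The other 12 arrays, 6 of each strain, came from rats that had lost 1 kidney, and they serve below as a repeat of the strain comparison in samples that share no array with the sham groups. No salt load, blood pressure or protein excretion is given for these samples, so the groups are compared as strains on ordinary chow. Beyond the sample names nothing says that each array came from its own animal, so a p-value here weighs a difference against a spread between arrays that may be technical.

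The kidney turns fatty acids, xenobiotics and amino acids over in its proximal tubule, sets sodium, potassium, calcium and magnesium balance in its distal segments, and carries its own circadian oscillator. In rats, enzymes of the Cyp4a family hydroxylate arachidonic acid to lipids that act on vessels and on tubular sodium transport, and they have long been studied as candidates for inherited hypertension. Strains also differ at the major histocompatibility complex, named RT1 in the rat, whose class I and class II genes are highly polymorphic. In whole kidney RNA, fewer cells of a type and less RNA per cell cannot be told apart.

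Values are log2 signals as deposited, and differences are SBH/y minus SBN/y on the log2 scale with the standard error of the limma fit, so a positive difference is higher in SBH/y and 1 unit is 2-fold. A probe set or gene is called when its p-value, two-sided and adjusted by the Benjamini-Hochberg method over all 31042 probe sets, is under 0.05. Genes are represented by their brightest probe set. Kidney markers were bright in every sham array: Umod, the main protein of the thick ascending limb, lay between 12.39 and 12.58, Lrp2, the megalin of the proximal tubule, between 11.3 and 11.45, and the water channel Aqp1 between 11.13 and 11.45. Arrays of 1 sham group correlated at 0.9912 to 0.997 and arrays of different strains at 0.9869 to 0.9925. The first principal component of the sham arrays held 39.64% of the variance and separated SBN/y from SBH/y, and on the second, with 19.83%, replicate 3 of SBH/y at 27.28 and replicate 2 of SBN/y at 19.4 stood farthest out. RNA quality was read from the GAPDH controls as the signal of the 3' probe set less that of the 5' probe set, which was 0.319, 0.341, 0.39, 0.382 and 0.329 in the SBN/y arrays. It ran from 0.404 over a median of 0.4445 to 0.531 in SBH/y, so every SBH/y array lay above every SBN/y array (mean difference 0.107, exact permutation test, two-sided, p = 0.00649 over 462 splits). This signal was also entered as a covariate, and the calls it ended are given with each group of genes or, for the remaining groups, after the plot of shares by group. Because the signal separates the sham groups, RNA quality and strain cannot be told apart in them. A call kept or lost with the covariate does not decide between the 2.

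The strains differed at 2817 of 31042 probe sets, a share of 9.07%, and at 1569 of 14217 named genes, a share of 11%. Of these genes 782 were higher in SBH/y (5.5% of all) and 787 lower (5.54%). Most differences were small: the median size over called probe sets was 0.372 log2 and 1971 of them, 70.0%, stayed under 0.5. At least 2-fold, 40 genes were higher and 52 lower, and at least 4-fold 5 genes were higher (Cyp4a1, Sdf2l1, RT1-Ba, Pxmp4 and Rnf6) and 8 lower (Scd, RT1-Bb, Matn1, Krt19, Ces1e, Mpv17l, Dph6 and Mrap). Groups that did not overlap were found for 1382 genes, 9.72% of all. The median difference over all genes was 0.007. Brighter probe sets were called more often: with those under the median signal left out, 2649 of 15521 were called. The 11% of all genes, set beside the gene lists below, includes dim genes. The lists were not compared with genes of like brightness.

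**Figure D1:**
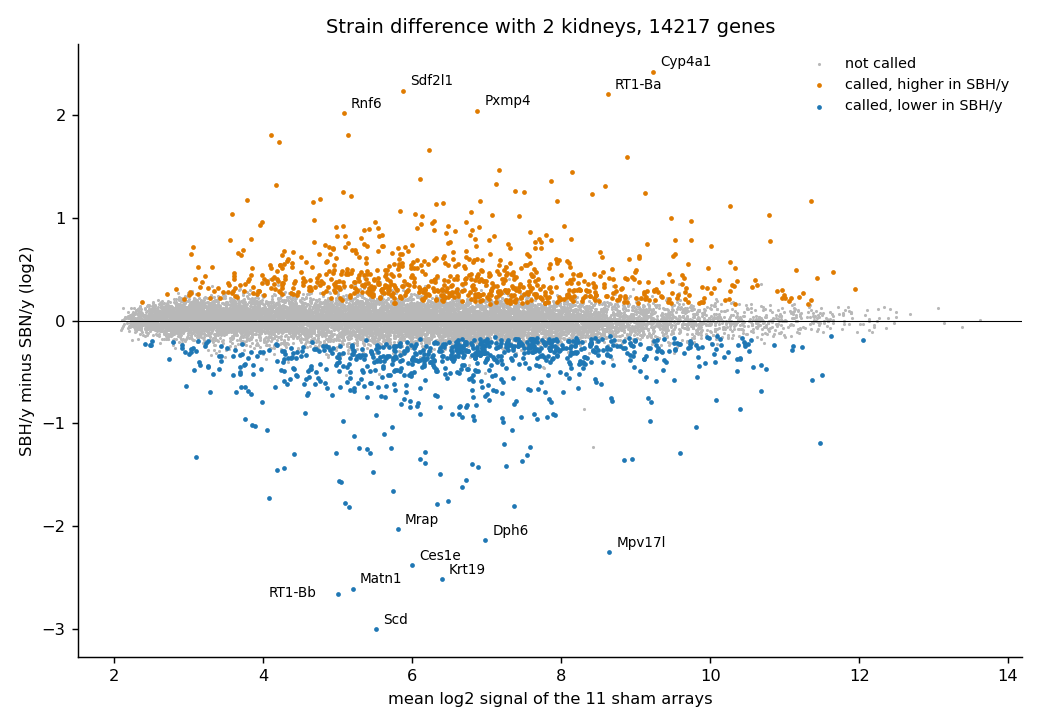
Difference between the strains (SBH/y minus SBN/y, log2, vertical axis) against the mean log2 signal of the 11 sham arrays (horizontal axis) for 14217 genes; called genes are coloured and the genes at least 4-fold apart are named. Most called genes lie within 0.5 log2 of 0, and the 13 named genes lie beyond 2.

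The largest increase in SBH/y lay in the fatty acid hydroxylases. Cyp4a1, an arachidonic acid and lauric acid hydroxylase that is inducible through the lipid receptor PPAR alpha, had values of 7.78, 7.85, 7.94, 7.98 and 8.03 in SBN/y. In SBH/y they ran from 10.25 over a median of 10.33 to 10.44. The groups lay more than 2 log2 units apart with a within-group SD of 0.1 and 0.07, and the difference of 2.42 ± 0.12 was 5.34-fold (adjusted p = 2.72e-14, limma). Its relative Cyp4a8 was also higher, by 1.16 ± 0.06, with SBN/y arrays between 10.61 and 10.8 and SBH/y arrays between 11.81 and 11.94, and a further probe set of Cyp4a8 gave 1.98. Cyp4a3, a further relative, went the other way: its SBN/y values of 12.16, 12.13, 12.02, 12.15 and 12.15 stood above SBH/y values from 10.83 over 10.93 to 11.02, a difference of -1.19 ± 0.09. Cyp4a3 has a near-identical copy, Cyp4a2, and the share of each in this signal is uncertain. Of the 11 measured members of this list, 3 were higher and 2 lower, 45.5% against 11% of all genes, with a median difference of -0.0. Besides the Cyp4a genes, Cyp4v3 was higher by 0.60 and Por, the reductase that feeds electrons to microsomal P450s, lower (-0.36). Cyp4f1 and Cyp4f4 were not called, at -0.08 and 0.05.

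Genes of the peroxisome and targets of PPAR alpha, taken as 1 list, differed in both directions, and the activity of the receptor was not tested. Of 38 measured peroxisomal and PPAR alpha target genes, 5 were higher and 3 lower (21.1%, median -0.03). Pxmp4, a peroxisomal membrane protein, was higher by 2.04 ± 0.11, while Mpv17l, a protein of the peroxisome and mitochondrion bearing on reactive oxygen, was lower (-2.25 ± 0.13). In SBN/y Mpv17l stood at 9.78, 9.91, 10.02, 9.91 and 9.75, and in SBH/y between 7.32 and 7.95 with a median of 7.6. Further probe sets of both genes gave the same directions, 1.48 for Pxmp4 and -1.3 for Mpv17l. Pecr, an enoyl-CoA reductase of the peroxisome, was lower (-0.86) and the acyl-CoA thioesterase Acot4 higher by 0.73. Its relatives Acot1 and Acot3, which are not in this list, were higher by 0.33 and 1.02. The receptor Ppara itself and the classical targets Cpt1a, Ehhadh, Cat and Pex11a were not called, with differences of -0.27, 0.09, 0.02, -0.16 and -0.04. In mitochondrial fatty acid oxidation, 3 of 32 measured genes were higher and 4 lower (21.9%, median -0.04). Acad10 and Acss1 were higher by 0.46 and 0.55, and Acsm1, which activates medium-chain acids, and the trifunctional protein subunit Hadhb were lower, at -0.69 and -0.31.

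The circadian clock turns over by activators, Bmal1 with Clock or Npas2, that drive E-box genes, among them repressors of the activators; the receptors Nr1d1 and Nr1d2 repress Bmal1 through ROR elements, and Dbp, Tef and Nfil3 act on D-boxes. Of 19 measured clock genes, 5 were higher in SBH/y and 8 lower, 68.4% against 11% of all genes, with a median of -0.18. The groups of 12 of the 19 did not overlap, against 9.72% of all genes. The promoters of 3 called members are printed because each holds a match to the element of its own loop within the 300 bases around its start. The windows are from RefSeq on GRCr8, 250 bases before to 50 after the start, with the ROR element core TAGGTCA in capitals for Bmal1 (chr1:176766078-176766377, plus strand) and the E-box CACGTG for Bhlhe41 (chr4:180569306-180569605, minus strand) and Tef (chr7:115206577-115206876, plus strand).
Bmal1: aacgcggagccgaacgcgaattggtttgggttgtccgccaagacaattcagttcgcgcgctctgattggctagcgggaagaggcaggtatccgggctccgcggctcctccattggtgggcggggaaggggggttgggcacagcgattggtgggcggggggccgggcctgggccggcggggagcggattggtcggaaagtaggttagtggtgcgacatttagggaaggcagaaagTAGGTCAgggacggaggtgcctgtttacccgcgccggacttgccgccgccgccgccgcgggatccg
Bhlhe41: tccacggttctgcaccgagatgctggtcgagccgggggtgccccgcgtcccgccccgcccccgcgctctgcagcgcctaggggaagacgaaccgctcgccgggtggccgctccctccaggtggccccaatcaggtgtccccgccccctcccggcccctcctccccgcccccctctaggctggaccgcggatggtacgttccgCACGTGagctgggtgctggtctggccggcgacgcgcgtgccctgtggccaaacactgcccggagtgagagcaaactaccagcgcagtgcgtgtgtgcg
Tef: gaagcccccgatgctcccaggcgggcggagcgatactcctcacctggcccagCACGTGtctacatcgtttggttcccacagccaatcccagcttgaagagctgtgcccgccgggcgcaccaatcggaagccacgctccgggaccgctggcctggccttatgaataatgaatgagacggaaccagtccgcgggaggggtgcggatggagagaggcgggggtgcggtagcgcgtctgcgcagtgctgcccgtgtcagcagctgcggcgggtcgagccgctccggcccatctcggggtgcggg
Both strands were searched. CACGTG was found in 6.42% of all 33469 windows and in those of 4 of the 17 clock genes that had one: Nr1d1, Bhlhe41 and Tef, which were lower, and Bhlhe40, which was not called. TAGGTCA was found in 2.63% of all windows and in that of Bmal1 alone among the 17, and TTATGNAA, a D-box, in 3.66% of all and in that of Per2, which was not called. A match is a run of letters in the reference, not a measured site.

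Bmal1 stood at 5.66, 5.11, 5.3, 5.14 and 5.02 in SBN/y and from 6.08 over 6.34 to 6.55 in SBH/y, higher by 1.07 ± 0.13 (adjusted p = 1.19e-06, limma). Dbp, a D-box activator and one of the strongest rhythmic transcripts of peripheral tissues, stood at 6.97, 7.54, 7.36, 7.49 and 7.8 in SBN/y. In SBH/y it ran from 5.45 over 5.67 to 5.87, so that all 6 arrays lay below all 5, with a difference of -1.75 ± 0.14 (adjusted p = 3.34e-10, limma). The activators Bmal1 and Npas2 were higher, by 1.07 and 0.83, as were Nfil3, the D-box repressor, by 0.83 and the repressor Cry1 by 0.71. Other repressors were lower, Per3 at -1.11, Nr1d1 at -1.03, Bhlhe41 at -0.98, Nr1d2 at -0.91 and Cry2 at -0.41, as was the D-box activator Tef at -0.50. Tsc22d3, a glucocorticoid-induced gene kept in this list for its rhythm, was higher by 0.56. Rora was lower, at -0.38 with overlapping groups, and its call was lost when replicate 4 or 5 of SBH/y or replicate 3 or 4 of SBN/y was left out (adjusted p = 0.0703 to 0.105, limma). Clock, Per1, Per2, Hlf, Usp2 and Bhlhe40 were not called, and of these Clock, Per1, Per2 and Hlf differed by 0.19, 0.2, -0.17 and -0.18. A further probe set of Nr1d2 was called at -0.72, while one of Per3 read -0.1 and was not called. Further probe sets of Cry2 and Rora read the other way and were not called. With the GAPDH signal as a covariate all 13 called genes kept their call and direction. In the 12 arrays of rats with 1 kidney, 11 of the 13 were called in the same direction; Cry2 and Rora were not, at -0.08 and -0.10. The labels used here give no hour of killing. The genes Npas2, Tef, Cry1, Cry2, Rora and Nr1d1 were picked for this paragraph after their values had been seen, to account for every called member.

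**Figure D2:**
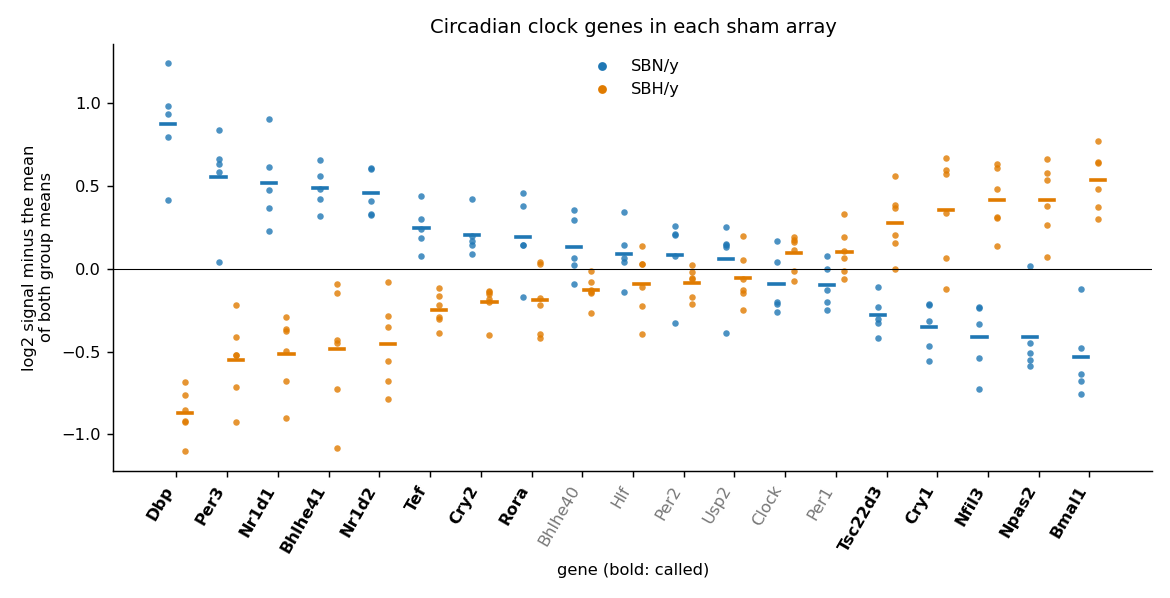
Level of 19 circadian clock genes in each sham array, as the log2 value minus the mean of the group means of that gene (vertical axis); points are arrays, SBN/y in blue and SBH/y in orange, and bars are group means. Genes run from the lowest difference, Dbp at -1.75, to the highest, Bmal1 at 1.07, and bold names mark the 13 called genes.

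The class II genes of the RT1 complex encode the alpha and beta chains that present peptides on antigen presenting cells. Of 10 measured genes of class II and its processing, 4 were higher and 1 lower (50% against 11% of all genes, median 0.05), and the chain genes did not move as a block. RT1-Ba, an alpha chain, was higher by 2.20 ± 0.09, from 7.46, 7.4, 7.61, 7.14 and 7.5 in SBN/y to 9.5, 9.62 and 9.74 (lowest, median and highest) in SBH/y. RT1-Bb, the beta chain of the same pair, was lower, at -2.66 ± 0.15: SBN/y arrays read 6.39, 6.09, 6.37, 6.78 and 6.6, and SBH/y arrays lay between 3.56 and 4.02, below the median probe set at 4.66. The neighbouring pair RT1-Db1 and RT1-Da was higher by 1.16 and 0.72, and the invariant chain Cd74 by 0.33, while the class II transactivator Ciita and the exchange factors RT1-DMa and RT1-DMb were not called (0.04, -0.18 and -0.12). Other probe sets of these genes read differently, with -0.48 for RT1-Ba (adjusted p = 0.00444, limma) and 0.05 for RT1-Bb (adjusted p = 0.821, limma). For RT1-Db1 a further probe set kept the direction, at 0.18 (adjusted p = 0.0418, limma). A further probe set of Ciita was called higher, by 0.32 (adjusted p = 0.0386, limma). The sizes, and the directions of RT1-Ba and RT1-Bb, therefore hold only for the probe sets named by their genes here.

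The promoters of the 4 chain genes are printed because all hold the same short element, and their brightest probe sets differed in direction. The Y box of class II promoters, searched as CTGATTGG on both strands and shown in capitals, was found in 3.50% of all windows; among the 8 class II list genes with a window it was found in these 4, 3 higher and 1 lower, and in no other. The windows lie on GRCr8 at chr20:4576807-4577106 (RT1-Ba, plus strand), chr20:4604069-4604368 (RT1-Bb, minus), chr20:4515165-4515464 (RT1-Da, plus) and chr20:4560113-4560412 (RT1-Db1, minus), and the letters are those of the reference, not of SBN/y or SBH/y.
RT1-Ba: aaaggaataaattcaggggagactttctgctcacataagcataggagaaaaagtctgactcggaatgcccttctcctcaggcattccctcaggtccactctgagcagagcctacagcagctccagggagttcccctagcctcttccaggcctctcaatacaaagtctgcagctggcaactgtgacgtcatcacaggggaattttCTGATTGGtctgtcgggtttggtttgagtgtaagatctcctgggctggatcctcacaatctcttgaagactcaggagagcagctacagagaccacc
RT1-Bb: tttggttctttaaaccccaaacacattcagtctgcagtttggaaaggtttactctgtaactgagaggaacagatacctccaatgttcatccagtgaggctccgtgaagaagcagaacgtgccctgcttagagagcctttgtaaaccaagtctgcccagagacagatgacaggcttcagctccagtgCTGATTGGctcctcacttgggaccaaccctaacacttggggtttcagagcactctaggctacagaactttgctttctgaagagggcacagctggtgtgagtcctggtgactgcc
RT1-Da: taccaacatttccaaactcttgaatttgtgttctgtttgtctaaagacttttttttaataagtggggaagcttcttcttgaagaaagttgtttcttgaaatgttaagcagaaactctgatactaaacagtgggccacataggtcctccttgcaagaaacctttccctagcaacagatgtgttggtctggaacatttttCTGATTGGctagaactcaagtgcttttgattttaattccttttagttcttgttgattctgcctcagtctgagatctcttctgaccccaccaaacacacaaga
RT1-Db1: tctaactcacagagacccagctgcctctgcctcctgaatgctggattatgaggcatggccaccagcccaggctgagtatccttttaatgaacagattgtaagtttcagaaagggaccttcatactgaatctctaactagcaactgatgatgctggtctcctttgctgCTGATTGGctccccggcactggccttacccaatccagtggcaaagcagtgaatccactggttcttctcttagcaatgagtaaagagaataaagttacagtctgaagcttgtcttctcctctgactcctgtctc
The match began at position -46 from the start in RT1-Ba, -64 in RT1-Bb, -52 in RT1-Da and -83 in RT1-Db1.

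Of 21 measured class I and immunoproteasome genes, 6 were higher and 2 lower (38.1%, median 0.12). The class I gene RT1-CE12 stood at 10.33, 10.37, 10.24, 10.25 and 10.26 in SBN/y and between 8.84 and 9.24 in SBH/y, a difference of -1.28 ± 0.07; class I genes are many and alike, so which copy this probe set reads is uncertain. The peptide loading genes Tapbp and Tap1 and the immunoproteasome subunit Psmb9 were higher by 0.49, 0.45 and 0.41. A further probe set of Tap1 read 0.02 and was not called. Tap2, B2m, Psmb8, Psmb10, Psme1 and Psme2 were not called either (-0.04, 0.13, 0.1, 0.09, 0.1 and 0.03).

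Interferon-induced genes were higher where they differed. Of 33 measured, 12 were higher and none lower (36.4%, median 0.22), and all 12 were called in the same direction with 1 kidney. Ifi27, a small mitochondrial protein induced by type I interferon, led them with 8.47, 8.4, 8.36, 8.4 and 8.6 in SBN/y against 9.5, 9.73 and 9.75 in SBH/y, a difference of 1.24 ± 0.07. Its promoter is printed as the example of the list (RefSeq, GRCr8, chr6:128355062-128355361, plus strand), with both matches to GAAANNGAA, the core of the interferon-stimulated response element, in capitals.
Ifi27: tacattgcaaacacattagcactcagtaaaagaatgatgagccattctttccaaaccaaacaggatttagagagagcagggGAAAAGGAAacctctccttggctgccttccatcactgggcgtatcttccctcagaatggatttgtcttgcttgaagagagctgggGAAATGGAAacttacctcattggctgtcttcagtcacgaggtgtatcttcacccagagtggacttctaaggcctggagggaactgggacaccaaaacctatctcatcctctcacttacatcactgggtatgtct
This core was found in 9.71% of all windows, in 9 of the 11 higher list members that had a window and in 9 of the 16 that were not called. The antiviral synthetases Oas1b and Oas1a were higher by 0.71 and 0.38, at dim signals (means of 2.66 and 4.32 in SBN/y, where the median probe set of the sham arrays lay at 4.66). The ubiquitin-like Ubd, Lgals3bp and Ifi44l were higher by 0.54, 0.51 and 0.49. With the GAPDH signal as a covariate 7 of the 12 kept their call, and 9 did without replicate 2 of SBN/y.

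Myeloid markers were in part higher. Of 26 measured macrophage and dendritic cell markers, 8 were higher and 2 lower (38.5%, median 0.09). Lyz2, the lysozyme of macrophages, stood at 10.33, 10.38, 10.43, 10.32 and 10.45 in SBN/y and between 11.07 and 11.23 in SBH/y, a difference of 0.78 ± 0.08. Itgax, the integrin CD11c of dendritic cells, was higher by 0.91, the Fc receptor chain Fcer1g by 0.44 and the scavenger receptor Cd68 by 0.34, while the mannose receptor Mrc1 was lower (-0.65). Defining markers were not called: the growth factor receptor Csf1r differed by -0.02, the leukocyte antigen Ptprc by 0.00, Adgre1 by 0.31 and Cd163, whose signal was 2.53 to 2.73 in the sham arrays, by -0.02. The count fell to 6 without replicate 3 of SBN/y, and 7 of the 10 kept their call with the GAPDH covariate. Complement gave 3 higher and 1 lower of 21 (19.0%), with C3 and Cfi higher by 0.57 and 0.64. Of 39 chemokines, adhesion molecules and NF-kB genes 5 were higher and 3 lower (20.5%, median 0.03). The B cell chemokine Cxcl13 was lower (-1.23 ± 0.19), with SBN/y arrays at 6.27 to 6.51 and SBH/y arrays at 4.83 to 5.51, and Cxcl14 was lower (-0.9), whereas fractalkine, Cx3cl1, was higher by 0.55 and Nfkb1 by 0.43. Of 21 lymphocyte and plasma cell markers none was higher and 2 were lower (9.52%, near the 11% of all genes), Cd3g at -0.35 and Cd8b at -0.27, both dim; Cd8b lost its call without replicate 1 or 2 of SBH/y or replicate 2 or 4 of SBN/y (adjusted p = 0.0698 to 0.0942, limma) and with the GAPDH covariate (adjusted p = 0.0875).

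Several genes of fat synthesis and of brown fat were lower in SBH/y and varied within SBN/y. Scd, the stearoyl-CoA desaturase and the gene with the largest difference of all, stood at 5.41, 7.19, 8.06, 7.32 and 7.77 in SBN/y and between 3.85 and 4.31 in SBH/y (difference -3.0 ± 0.4). Thrsp, which promotes lipogenesis, read 5.86, 7.52, 8.14, 7.23 and 7.8 in SBN/y against 4.64 to 5.89 in SBH/y, and Ucp1, through which brown fat produces heat, 4.45, 6.66, 6.89, 5.74 and 6.54 against 3.65 to 4.66. In all 3 genes replicate 1 of SBN/y was the lowest of its strain, and for Thrsp and Ucp1 it lay within the SBH/y range, so those groups overlap. Replicate 1 was again the lowest of SBN/y for Cox8b, a cytochrome oxidase subunit of brown fat and muscle (4.83, 6.45, 6.32, 5.51 and 6.06 in SBN/y), and Fabp4, the fatty acid binding protein of adipocytes (6.18, 7.06, 7.88, 6.92 and 7.42). The differences of Cox8b and Fabp4 were -1.12 ± 0.22 and -0.83 ± 0.23, with SBH/y at 4.57 to 5.07 and 5.54 to 6.66.

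Of 22 measured adipocyte markers, 1 was higher and 5 lower (27.3%, median -0.05), and in none were the groups apart. The higher marker was Car3, by 0.60 (adjusted p = 0.0184, limma) and by 1.49 with 1 kidney. A further probe set of Car3 read -0.03 and was not called. The summed signal of the 22 markers ran from 12.55 to 12.71 log2 over the SBN/y arrays, with SBH/y arrays at 12.43 to 12.61. Pck1, by far the brightest member (means of 12.18 in SBN/y and 12.08 in SBH/y), made up most of this sum. The sum therefore says little of the dimmer markers. Adipoq was lower (-0.31), while the lipid droplet coat Plin1, Lep, Pparg, Cfd and Cidea were not called (0.0, -0.06, -0.01, -0.32 and -0.33). Elovl3, Dio2 and Cox7a1 were not called either (0.05, 0.14 and -0.05). Fabp4, like Scd and Thrsp, was lowest in replicate 1 and highest in replicate 3 of SBN/y, and the part of adipocyte RNA in the strain difference of Scd and Thrsp was not tested. Without replicate 3 of SBN/y the count of called adipocyte markers was 3 instead of 6, and Fabp4 lost its call without that array (adjusted p = 0.0881, limma), without replicate 5 of SBH/y (0.0581) or without replicate 5 of SBN/y (0.0602). Adipoq lost its call without replicate 2 (0.0586) or 3 (0.0703) of SBN/y. With the GAPDH covariate 4 of the 6 kept theirs, and Fabp4 did not (adjusted p = 0.112). Ucp1 and Cox8b kept their call whichever array was left out.

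**Figure D3:**
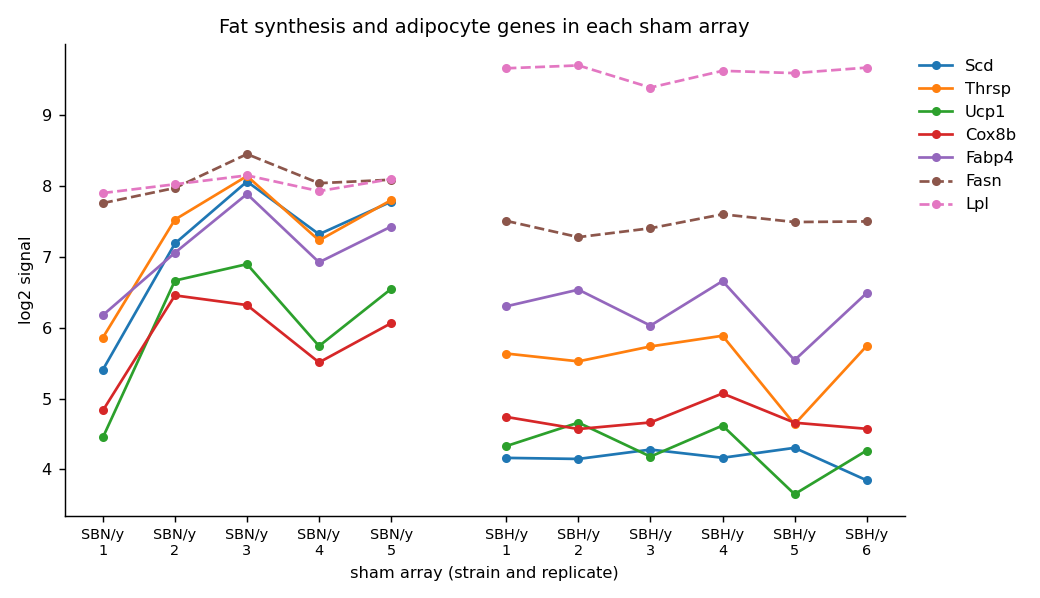
Log2 signal (vertical axis) of Scd, Thrsp, Ucp1, Cox8b, Fabp4 and, for comparison, Fasn and Lpl in each of the 11 sham arrays (horizontal axis, SBN/y replicates 1 to 5, then SBH/y replicates 1 to 6); lines join the values of 1 gene. Replicate 1 of SBN/y is the lowest SBN/y array for all genes drawn, and Lpl is the only one higher in SBH/y.

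Of 31 measured genes of lipogenesis and lipid uptake, 2 were higher and 5 lower (22.6%, median -0.09). With the GAPDH covariate all 7 kept their call and the count was 12. Fasn, the fatty acid synthase, was lower, at -0.60 with groups apart (7.75, 7.97, 8.45, 8.04 and 8.08 against 7.28 to 7.6), and the acyltransferase Agpat2 at -0.37. Acaca, Acly, Elovl6, Me1 and the regulator Srebf1 were not called, at -0.23, -0.04, -0.11, -0.09 and -0.07. Lpl, the lipoprotein lipase that releases fatty acids from plasma triglyceride, was higher by 1.58 ± 0.08 (7.9, 8.02, 8.15, 7.92 and 8.09 against 9.38, 9.64 and 9.7), and the desaturase Fads1 by 0.79. In cholesterol metabolism, 1 of 22 was higher and 5 were lower (27.3%, median -0.11). The isomerase Idi1 was lower (-0.79 ± 0.14), Cyp51 at -0.47, Fdps at -0.28 and the sterol receptor Nr1h3 at -0.34, and the exporter Abca1 was higher by 0.72. Sqle and Insig1 were not called (-0.2 and -0.15).

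Sodium transport and mineralocorticoid genes gave 5 higher and 1 lower of 32 measured (18.8%, median 0.01). Sgk1, the aldosterone- and glucocorticoid-induced kinase that raises the surface level of the epithelial sodium channel, stood at 9.07, 8.91, 8.86, 8.96 and 8.84 in SBN/y and from 9.66 over 9.95 to 10.11 in SBH/y. Every SBH/y array was above every SBN/y array, and the difference was 0.99 ± 0.07, or 1.99-fold (adjusted p = 6.64e-11, limma). Tsc22d3, also induced by corticosteroids, was higher by 0.56, and Fxyd4, the collecting duct modulator of the sodium pump, by 0.67 ± 0.11. The bicarbonate cotransporter Slc4a4 and the exchanger Slc9a3 of the proximal tubule were higher by 0.34 and 0.33. A further probe set of Slc4a4 read 0.07 and was not called, and Slc9a3 differed by -0.18 with 1 kidney, where it was not called. The transporters that distal sodium uptake depends on did not differ beyond the test: Slc12a1 stood at -0.04, Slc12a3 at 0.13, and the channel subunits Scnn1a, Scnn1b and Scnn1g at 0.07, -0.06 and 0.04. The mineralocorticoid receptor Nr3c2 (0.0), the protective enzyme Hsd11b2 (-0.06) and the ligase Nedd4l (0.07) were not called either.

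Of 16 measured genes of the renin-angiotensin system and its peptidases, 2 were higher and none lower (12.5%). Mme, the membrane peptidase neprilysin, was higher by 0.32, and its strain difference with 1 kidney was -0.12, so the 2 differences were themselves different (adjusted p = 0.0386, limma interaction). Thop1, the other, differed by 0.22 and lost its call with the 11 sham arrays alone (adjusted p = 0.0746, limma), with a trended, robust variance (0.0625) and without replicate 1, 2, 3 or 5 of SBH/y or replicate 2, 3 or 4 of SBN/y (adjusted p = 0.0531 to 0.153, limma). Agt and Ace were not called (0.01 and -0.12). Of 14 kallikrein and kinin genes 2 were higher and 3 lower (35.7%, median -0.03): Klk1b3 was lower, at -0.41 (with the GAPDH covariate -0.35, adjusted p = 0.0582), Klkb1 at -0.45 and Klk1c9 at -1.03, and the carboxypeptidase Cpn1 was higher by 0.39. The kallikrein Klk1c4 was higher too, by 0.89 ± 0.22 with overlapping groups, and differed by -0.16 with 1 kidney, not called. Klkb1 and Klk1c9 were dim, with SBN/y means of 3.5 and 4.45 under the median probe set at 4.66. Kallikrein genes form a cluster of close copies, and which member a probe set reads is uncertain. Of 30 natriuretic peptide, nitric oxide and endothelin genes 1 was higher and 1 lower (6.67%), the guanylate cyclase subunit Gucy1b2 at -0.84 ± 0.18. Of 29 genes that have been proposed as candidates for rat hypertension, 3 were higher and 4 lower (24.1%, median 0.01). Besides the Cyp4a genes these included Ephx2, the soluble epoxide hydrolase, lower, at -0.79 ± 0.07 (9.58, 9.56, 9.64, 9.65 and 9.73 against 8.79, 8.84 and 8.92), Resp18, lower (-0.43), and Gstm1, higher by 0.43. Acsm3, also known as SA, was not called (-0.03, adjusted p = 0.902, limma), although it was lower, at -0.65 with 1 kidney and the difference between the strain differences passed the test (adjusted p = 0.00402).

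Some distal and mineral-handling genes were lower. Of 25 markers of the thick ascending limb and distal convoluted tubule, 1 was higher and 5 lower (24.0%, median -0.04). Of 22 genes of klotho, vitamin D and mineral handling none was higher and 5 were lower (22.7%, median -0.03). The lists share 3 of these lower genes, Casr, Calb1 and Kl. Klotho itself, Kl, was lower, at -0.46 ± 0.12 with overlapping groups (adjusted p = 0.0141, limma), and at -0.68 with 1 kidney. Casr, the calcium-sensing receptor, stood at 7.96, 8.12, 7.94, 7.94 and 7.89 in SBN/y and between 6.79 and 7.16 in SBH/y, lower (-0.93 ± 0.08). Calb1, the calcium buffer of the distal tubule, was lower (-0.49) and the paracellular magnesium channel protein Cldn16 at -0.43, but its partner Cldn19 was higher by 0.45. Gc, the vitamin D binding protein, was lower, at -1.23 ± 0.11 (8.52, 8.33, 8.05, 8.26 and 8.07 against 6.88, 6.99 and 7.21), and the parathyroid hormone receptor Pth1r at -0.26. Umod, at 0.03, was not called. Of 24 principal cell and medullary markers 2 were higher and 2 lower (16.7%), with Kcne1 at -0.79. Of 15 intercalated cell markers 1 was higher, the ammonia channel Rhcg by 0.29, and 1 lower (13.3%), and 1 of the 2 lost its call without any 1 array other than replicate 2 of SBH/y.

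Transporters of organic ions and drugs were mostly lower where they differed. Of 28 measured, 2 were higher and 9 lower (39.3% against 11% of all genes, median -0.06). The groups of 11 of the 28 did not overlap, against 9.72% of all genes. Slco1a3, an organic anion transporter of the kidney, stood at 10.51, 10.35, 10.24, 10.31 and 10.45 in SBN/y and between 9.27 and 9.42 in SBH/y (difference -1.04 ± 0.07). Slc22a12, the urate transporter, was lower (-0.78 ± 0.12), as was the ergothioneine and carnitine transporter Slc22a4 at -0.78, Slco1a1 at -0.55 and the urate and drug exporter Abcg2 at -0.38. The prostaglandin carrier Slco2a1 was higher by 0.49. Of 33 genes of proximal tubular protein uptake and transport 3 were higher and 2 lower (15.2%, median -0.0). The lactate transporter Slc5a12 was higher by 0.76 and the glucose transporter Slc2a2 by 0.47, and the ascorbate transporter Slc23a1 was lower (-0.75) and Slc2a5, which carries fructose, at -0.33. Lrp2 was not called (-0.02).

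Among enzymes of betaine and sulfur amino acid metabolism, lower genes outnumbered higher ones. Of 38 measured one-carbon, betaine and amino acid enzymes, 4 were higher and 10 lower (36.8%, median -0.08), and 11 of the 14 kept their call with the GAPDH covariate. Bhmt, which remethylates homocysteine with betaine, stood at 7.53, 7.39, 7.57, 7.7 and 7.65 in SBN/y and from 5.93 over 6.01 to 6.13 in SBH/y, a difference of -1.55 ± 0.09. Its neighbours on the chromosome were lower too: Bhmt2 at -0.26, Dmgdh, the dimethylglycine dehydrogenase that takes the product of Bhmt, at -0.35, and Homer1, a synaptic scaffold protein, at -0.58. Cdo1 and Csad, steps from cysteine to taurine, were lower, at -0.44 and -0.37, and the folate enzyme Mthfd1 at -0.31. Gadl1, a decarboxylase of aspartate and cysteine sulfinic acid, was higher by 1.74 ± 0.12, from 3.26, 3.3, 3.2, 3.41 and 3.13 to 4.68, 4.97 and 5.34, and the tyrosine catabolic enzyme Hpd by 0.41.

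Among carboxylesterases and aldehyde dehydrogenases 4 of 19 were higher and 3 lower (36.8%, median 0.02). Ces1e was lower, at -2.38 ± 0.11 (7.61, 7.13, 7.14, 7.38 and 7.2 against 4.52, 4.94 and 5.13) while its relative Ces1d was higher by 1.03 ± 0.11, and the mitochondrial Aldh1b1 was lower (-1.65). Of 43 glutathione, heme degradation and Nrf2 genes 6 were higher and 3 lower (20.9%, median 0.03). The biliverdin reductases differed in opposite directions: Blvra was higher by 1.44 ± 0.09 (7.59, 7.29, 7.4, 7.15 and 7.36 against 8.67, 8.82 and 8.88) and Blvrb lower, at -0.85 ± 0.06 (6.22 to 6.56 against 5.42 to 5.65). Gstt2 was lower (-0.94), with a further probe set at -0.01 that was not called, glutathione synthetase Gss lower (-0.37) and Gsto1 higher by 0.57. Of 42 xenobiotic P450s and transferases 5 were higher and 2 lower (16.7%, median 0.03). Cyp1a1, the target of the aryl hydrocarbon receptor, stood at 4.84, 5.3, 5.28, 5.52 and 5.67 in SBN/y and from 6.41 over 7.04 to 7.36 in SBH/y (1.65 ± 0.22), and the strain difference was 0.3 with 1 kidney, where it was not called (adjusted p = 0.45). The difference between them was -1.35 (adjusted p = 0.0546, limma interaction). Fmo5 was lower (-0.98). In the epoxide and prostaglandin pathway 4 of 30 were higher and 3 lower (23.3%, median 0.08): the steroid and prostaglandin reductase Akr1c14 was lower (-1.45 ± 0.14), the prostaglandin-degrading Hpgd at -0.78, and the kidney epoxygenase Cyp2c23 was higher by 0.31.

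Of 52 measured matrix and turnover genes 12 were higher and 4 lower (30.8%, median 0.01). The basement membrane chains Col4a2 and Col4a1 were higher by 0.59 and 0.42, nidogen, Nid1, by 0.46, the cross-linking Lox by 0.57, the profibrotic Ccn2 by 0.62 ± 0.11 (8.64, 8.02, 8.03, 8.2 and 8.17 against 8.65, 8.84 and 8.99) and the dim Mmp9 by 0.96. Matn1, a cartilage matrilin, was lower (-2.61 ± 0.13), from 6.61, 6.75, 6.92, 6.52 and 6.31 to 3.58, 3.99 and 4.46, the gelatinase Mmp2 at -0.53 and the laminin chain Lamb2 at -0.31. Col4a1, Lox, Nid1 and Lamb2 were named here after their values had been seen. Of 26 tubular injury markers 4 were higher and 2 lower (23.1%, median 0.14). Lgals3 was higher by 0.76 ± 0.09 and osteopontin, Spp1, by 0.51 ± 0.10, whereas Krt19, a duct keratin re-expressed in injured tubules, was lower, at -2.51 ± 0.11 (7.91, 7.9, 7.67, 7.54 and 7.81 against 4.96, 5.19 and 5.67). Havcr1, known as Kim-1, was not called (0.35 ± 0.25, adjusted p = 0.491, limma), and neither was Lcn2 (0.17). That standard error comes from the fit over all 23 arrays. Havcr1 in the sham arrays lay at 3.73 to 3.97 in SBN/y (SD 0.1) and 3.93 to 4.72 in SBH/y (SD 0.29). With the GAPDH covariate 4 of the 6 injury markers kept their call and 13 of the 16 matrix genes did.

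Of 23 immediate early genes 6 were higher and none lower (26.1%, median 0.07), among them Myc by 0.68 ± 0.11 (4.73, 4.83, 4.8, 5.05 and 4.88 against 5.33, 5.51 and 5.84), Jund by 0.65 and Jun by 0.54. Of 39 genes of growth factors and the IGF axis 3 were higher and 7 lower (25.6%, median -0.03): Egfr was lower, at -0.74 ± 0.11 (a further probe set read 0.28 and was not called), Igfbp4 at -0.67 and Pdgfa at -0.49, and Igfbp2 was higher by 0.70 and Fst, follistatin, by 0.53. That count was 6 without replicate 4 of SBN/y and 6 without replicate 4 of SBH/y, and 6 of the 10 kept their call with the GAPDH covariate. Among endoplasmic reticulum chaperones and stress genes 4 of 30 were higher and 1 lower (16.7%, median 0.06). Sdf2l1, a cofactor of the chaperone BiP, was higher by 2.23 ± 0.11 (4.81, 4.9, 4.55, 4.36 and 4.65 against 6.65, 6.92 and 7.13). The count of 5 was 3 without replicate 2, 4 or 6 of SBH/y or replicate 1, 4 or 5 of SBN/y, and 2 of the 5 kept their call with the GAPDH covariate, Sdf2l1 among them. The remaining groups had 3 called genes of 43 for oxidative phosphorylation (6.98%), 2 of 34 for the cell cycle (5.88%), 3 of 25 for the podocyte (12%), 3 of 23 for mesangial, pericyte and smooth muscle cells (13%) and 5 of 22 for endothelium (22.7%). In the last group the lymphatic markers Lyve1 and Prox1 were lower, at -0.60 and -0.35 and podoplanin, Pdpn, was higher by 0.55. Without replicate 2 of SBN/y the endothelial count was 3, and without replicate 3 of either strain that of oxidative phosphorylation was 1. Of the 2 called cell cycle genes Mis18a was higher by 1.80 ± 0.11, from a mean of 3.12 in SBN/y to 4.92 in SBH/y, and the other was lower. The cell cycle count was 1 without replicate 3, 4 or 5 of SBH/y or replicate 1, 2, 3 or 5 of SBN/y.

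**Figure D4:**
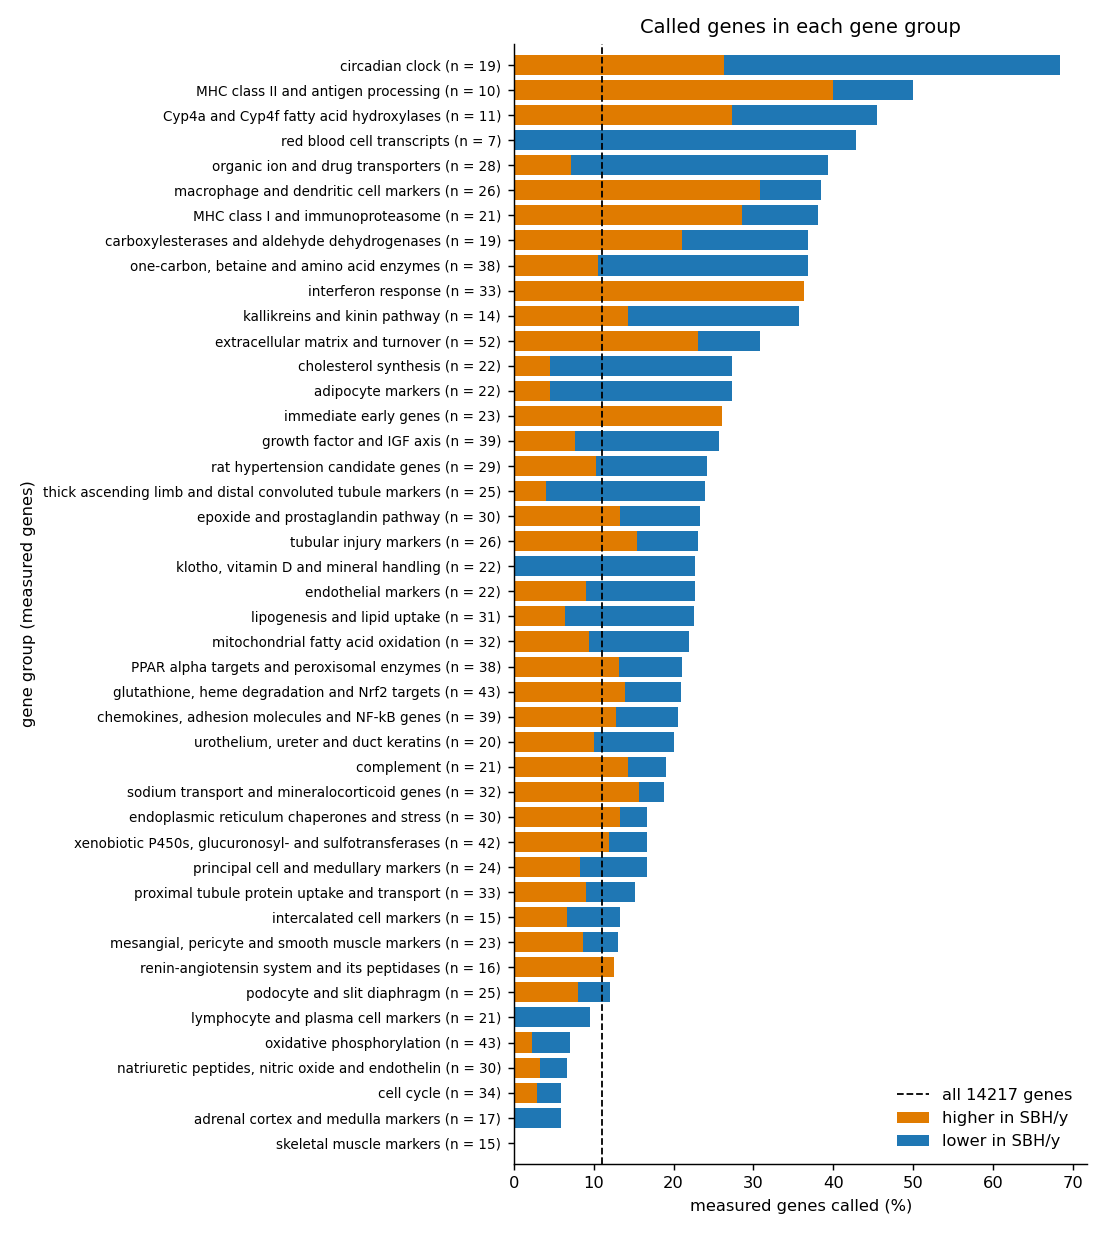
Share of measured genes called between the strains (horizontal axis, percent) in each of the 44 gene groups (vertical axis), split into higher in SBH/y (orange) and lower (blue); the dashed line is the 11% of all 14217 genes. The circadian clock has the highest share, 68.4%, and skeletal muscle markers the lowest, 0.0%. The line includes dim genes. With dim probe sets left out 2649 of 15521 probe sets were called, against 2817 of all 31042.

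With the GAPDH signal as a covariate, calls were also lost in groups for which this has not been given above. Of 11 called organic ion and drug transporters 9 kept their call, as did 8 of 9 glutathione, heme and Nrf2 genes and 7 of 8 class I genes. In mitochondrial fatty acid oxidation, the epoxide and prostaglandin pathway and the carboxylesterases and aldehyde dehydrogenases 6 of 7 did. In cholesterol metabolism and the thick ascending limb and distal tubule 5 of 6 did. Of the small groups, 2 of 3 did for the podocyte and for mesangial cells, 1 of 2 for intercalated cells and 1 of 3 for oxidative phosphorylation.

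Markers of tissues that adjoin the kidney or circulate through it were followed for each group. Red blood cell transcripts gave none higher and 3 lower of 7 (42.9%): Alas2 was lower (-0.81 ± 0.15), Hba-a3 at -0.75 and Hbb at -0.53, with Hbb at 11.87, 11.8, 11.56, 11.87 and 11.83 in SBN/y and from 10.77 over 11.23 to 11.72 in SBH/y. Adrenal genes gave 1 lower of 17 (5.88%), Mrap, the accessory protein of the corticotropin receptor, at -2.03 ± 0.12. The adrenal enzymes themselves were dim in all sham arrays, with Cyp11b1 between 2.35 and 2.61 and Star between 3.16 and 3.41, and were not called (-0.05 and -0.04). Urothelial and duct keratin markers gave 2 higher and 2 lower of 20 (20%), Krt19 among the lower, while Upk3a, Krt5, Krt7, Krt8 and Krt18 were not called (0.09, -0.02, -0.07, -0.15 and 0.14). The count was 2 without replicate 5 of SBH/y and 2 without replicate 3 of SBN/y, and 2 of the 4 kept their call with the GAPDH covariate. None of 15 skeletal muscle markers was called (0.0%; 2 had an unadjusted p under 0.05, limma), and 1 was when replicate 1 of SBH/y or replicate 5 of SBN/y was left out.

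Several of the largest differences lay in genes of no group. Serpinc1, antithrombin, was higher by 1.31 ± 0.07 (7.79, 7.8, 7.9, 7.89 and 8.02 against 9.05, 9.18 and 9.29). The plasma proteins Hrg and Fetub were higher by 1.36 and 1.25, the choline phosphodiesterase Enpp6 by 1.26, the monocarboxylate transporter Slc16a1 by 1.25, and the ubiquitin ligase Rnf6 by 2.01. For Slc16a1 a further probe set read 0.04 and was not called. Lower were Enpp1, the pyrophosphate-forming phosphodiesterase, at -1.62 ± 0.07 (7.45, 7.65, 7.61, 7.61 and 7.47 against 5.71, 5.98 and 6.01), the RNA editing enzyme Apobec1 at -1.56, the estradiol-forming Hsd17b1 at -1.56, Dph6, an enzyme of diphthamide synthesis, at -2.13, and Ly6i at -1.80 ± 0.07. Larger than 1.3 in size were also the increases of Vps13c (1.80), Ube3al1 (1.46), Abhd3 (1.38), Tmed6 (1.33) and Vof16 (1.32) and the decreases of Brcc3-ps7 (-1.73) and Nom1 (-1.49). Further probe sets of Abhd3 and Vof16 read 0.12 and -0.08 and were not called. The transcription factor Pou2f1 was lower (-1.81), and Zbtb41, lower (-1.47), spread widely in SBH/y, from 4.13 to 5.69.

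The order of the genes along the chromosomes was read next. Of 1564 called genes with a next measured gene in the RefSeq order, that gene was called for 255, 16.3%, against 11% of all placed genes, and in the same direction for 150. The longest run held 5 genes, Fam149a, Cyp4v3, Klkb1, Fat1 and Frg1, with differences of -0.81, 0.60, -0.45, 0.47 and -0.40. In the thioesterase run Acot1, Acot4 and Acot3 were higher by 0.33, 0.73 and 1.02, and the dynein gene Dnal1 lower (-0.76). The runs of Homer1, Bhmt, Bhmt2 and Dmgdh and of Pacsin3, Arfgap2, Cstpp1 and Lrp4 were lower throughout, the latter at -0.21, -0.25, -0.82 and -0.74; Pacsin3 lost its call without replicate 2 or 4 of SBH/y or replicate 2 or 5 of SBN/y (adjusted p = 0.0545 to 0.113, limma). It also lost it with the GAPDH covariate (0.0859), the replicate block (0.0577), the 11 sham arrays alone (0.0697) and quantile normalization repeated (0.0695).

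Probe sets of 1 gene did not always give 1 answer. Of 518 called genes with a further probe set, the next brightest gave the same direction for 409 and was called in that direction for 150, 29.0%, and in the opposite direction for 14. At least 2-fold, 18 of 25 genes kept the direction, 14 were called in it and 2 were called in the opposite one. In 21 genes probe sets were called both ways. For Id2, an inhibitor of helix-loop-helix factors, they gave 1.12 ± 0.10 and -0.72 ± 0.09, for the interferon receptor chain Ifnar2 0.95 ± 0.16 and -0.91 ± 0.09, for Cyb5b 0.54 ± 0.06 and -0.57 ± 0.07 and for the lipid phosphatase Plpp3 1.03 ± 0.10 and -0.67 ± 0.10. In these 4 genes both directions were found again with 1 kidney (1.27 and -0.7 for Id2, 1.45 and -0.72 for Ifnar2, 0.43 and -0.7 for Cyb5b, 0.8 and -0.65 for Plpp3). The probe sequences were not used here, so strain variants under the probes were not tested. The arrays with 1 kidney hold the same strains and probe sets. A difference found again there therefore cannot tell such variants from a difference in RNA.

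The strain difference was then read in the 12 arrays of rats with 1 kidney. Of the 2817 probe sets, 2701 (95.9%) differed in the same direction there and 1975 (70.1%) were called in it, against 14% of all probe sets called with 1 kidney, and 7 were called in the opposite direction. Of the 195 probe sets at least 2-fold apart at baseline, 194 were called in the same direction with 1 kidney and 158 were again at least 2-fold apart. Cyp4a1 differed by 2.43 there, RT1-Ba by 2.54, Ces1e at -2.7 and Dbp at -2.03. The difference with 1 kidney departed from that with 2 at 30 of the 2817 probe sets and at 79 probe sets in all. Mmp12, the macrophage elastase, was higher by 0.62 at baseline and by 1.93 with 1 kidney, Spp1 by 0.51 and 1.52, and Nr1d1 was lower, at -1.03 and -2.15 (adjusted p for the differences of differences 0.0011, 0.000762 and 0.0389, limma). The opposite held for Ugt2b7, a glucuronosyltransferase, higher by 0.91 at baseline and 0.04 with 1 kidney, for Cpe, carboxypeptidase E, at -0.74 and 0.25, and for Sectm1b at -0.74 and 0.17 (adjusted p = 0.0105, 0.0257 and 0.00302). None of the last 3 was called with 1 kidney.

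**Figure D5:**
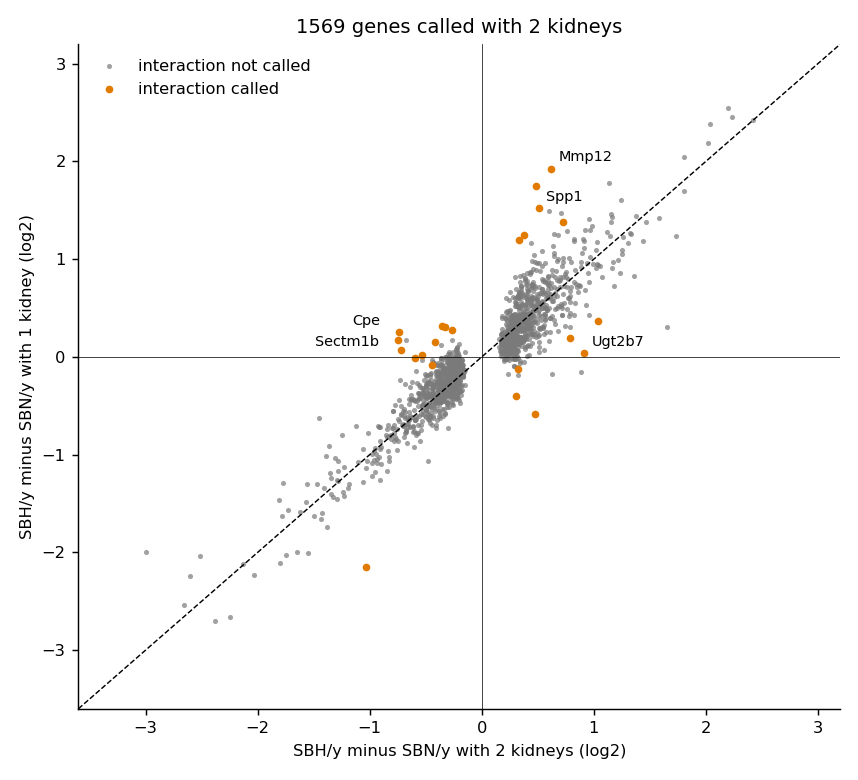
Strain difference with 1 kidney (vertical axis, log2) against that with 2 kidneys (horizontal axis, log2) for the 1569 genes called with 2 kidneys; the dashed line marks equal differences, and genes whose differences passed the interaction test are in orange. Most genes far from 0 lie near the line, Cyp1a1 at 1.65 and 0.3 does not, and Mmp12, Spp1, Ugt2b7, Cpe and Sectm1b are named.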

How the data were processed

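Per the labels, total RNA of whole kidney from male SBN/y and SBH/y rats was labelled and hybridised to 1 Affymetrix array per sample. Per the submitters' processing notes, GCOS and RMA were used; the deposited values are log2 signals with nearly the same distribution on every array, and they were used without further normalization. The array holds 31099 probe sets; its 57 controls were not tested. A limma fit (version 3.58.1, R 4.3.3) over all 23 arrays, with 1 mean per group and an eBayes variance, gave the strain difference with 2 kidneys, that with 1 kidney and their interaction, and p-values were adjusted over the 31042 probe sets. The number of arrays limits the precision: the median standard error of a difference was 0.078.

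Symbols came from GEO's platform annotation, updated through RefSeq (GRCr8): 20826 probe sets had 1 symbol, 436 several and 9780 none. Where a gene had several probe sets, the brightest over the 23 arrays stood for it. The 44 gene lists hold 1331 entries, of which 1162 were measured (1102 different genes). Named are the 20 largest increases and the 20 largest decreases with groups apart and, in part, the up to 6 called members of each list with the smallest p, genes with probe sets called in opposite directions, the longest runs of called neighbours, the genes with the largest within-group spread, the largest interactions and uncalled members given as such; exceptions are stated. The members and lists were chosen with earlier results of these data known. Promoter windows were read from RefSeq tables on GRCr8. The alternatives are listed in the closing section.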

Additional observations from a re-analysis of the deposited data

Results flagged for a closer look

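For 12 genes named above the strain difference with 1 kidney departed from that with 2 (limma interaction, adjusted p under 0.05). It was larger with 1 kidney for Havcr1 by 1.83 (0.35 with 2 kidneys, 2.18 with 1), Mmp12 by 1.31 (0.62 and 1.93) and Spp1 by 1.01 (0.51 and 1.52). The change was -1.12 for Nr1d1 (-1.03 and -2.15), -0.87 for Ugt2b7 (0.91 and 0.04), -0.62 for Acsm3 (-0.03 and -0.65) and -0.44 for Mme (0.32 and -0.12). It was 0.99 for Cpe (-0.74 and 0.25), 0.92 for Sectm1b (-0.74 and 0.17), 0.67 for Cd3g (-0.35 and 0.31), 0.55 for Mmp2 (-0.53 and 0.02) and 0.39 for Krt8 (-0.15 and 0.24).

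In 35 of 490 groups of sham arrays examined (245 genes in 2 strains, 7.14%), 1 array stood far from the nearest of the others by Dixon's test, where chance gives about 1 in 20. In SBN/y, replicate 1 was the highest for Ccn2 at 8.64, Dph6 at 8.34, Npas2 at 5.58 and Slco1a1 at 10.41, and the lowest for Usp2 at 6.18. Replicate 2 was the highest for Casr at 8.12 and Ube3al1 at 6.68 and the lowest for Ces1d at 6.3, Lox at 4.08, Nom1 at 6.92, Slc16a1 at 6.26 and Slc5a12 at 7.0. Replicate 3 was the highest for Acad10 at 7.43 and Elovl6 at 6.47 and the lowest for Cyp4a3 at 12.02 and Hbb at 11.56. Replicate 4 was the highest for Acot1 at 8.42 and Pou2f1 at 6.28, and replicate 5 the lowest for Kcne1 at 3.92. In SBH/y, replicate 1 was the highest for Akr1c14 at 3.66 and the lowest for Blvrb at 5.42 and Ifi27 at 9.5. Replicate 3 was the highest for Pparg at 4.69 and the lowest for Ces1e at 4.52, Cry2 at 5.85, Lpl at 9.38, Mis18a at 4.46 and Plpp3 at 8.63. Replicate 4 was the highest for Cox8b at 5.07 and the lowest for Enpp1 at 5.71 and Gucy1b2 at 5.55. Replicate 5 was the lowest for Cfd at 3.02 and Thrsp at 4.64, and replicate 6 for Ciita at 4.72 and Scd at 3.85.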

How the results depend on the processing

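The 2817 probe sets called between the strains became 2412 to 2747 without any 1 sham array, 2649 of 15521 without dim probe sets, 2726 with the 11 sham arrays alone, 2735 with arrays centred on their median, 2969 with a trended and robust variance, 2984 with quantile normalization repeated and 3353 with array weights. The same settings gave 149 to 200 probe sets at least 2-fold apart, against 195. With the GAPDH signal as a covariate 2897 were called, of which 2207 were among the 2817, and 42.3% were higher in SBH/y instead of 47.6%; the counts of 6 of the 44 gene lists moved by over 1.5 times. With 1 probe set per gene 1569 were called and 92 were at least 2-fold apart, fewer features being tested. Separate fits for 2 kidneys and 1 kidney found 1881 of 2726 probe sets in both (69.0%), and the set without dim probe sets 1894 of 2649 (71.5%). The interaction was called at 79 probe sets, at 59 to 76 without 1 sham array, at 124 both with the GAPDH covariate and with the trended, robust variance, and at 137 with array weights, alternatives added after the data had been seen; the cause was not tested. The difference in the GAPDH signal was 0.093 to 0.119 without any 1 array.

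Deviations of same-numbered arrays from their group means correlated at 0.156, -0.136, -0.171, 0.028 and 0.06, so the numbers were not taken as pairs. A fit with the replicate block called 2718 probe sets, 196 of them at least 2-fold apart, and 67 interactions. It kept 188 of 189 called genes named, Car3, Kl and Klk1c4 not being counted, and the count of 1 of the 44 lists moved by over 1.5 times.

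Of the same 189 called genes, 183 kept their call whichever array was left out. The next brightest probe set, where there was one (50 genes), kept the call and direction of 25 and the direction alone of 13. It read the other way for 12, called for Id2 (-0.72), Ifnar2 (0.95), Cyb5b (0.54) and RT1-Ba (-0.48) and not called for Cry2 (0.04), Egfr (0.28), Mmp2 (0.02), Prox1 (0.08), Pth1r (0.09), RT1-Bb (0.05), Rora (0.07) and Vof16 (-0.08). Signals near 2 to 3, where the dimmest probe sets lie, carry differences that may be compressed.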
